A study of Mus musculus with 4 samples.

Results

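The genes described here encode proteins of the mitochondrial ribosome. They were chosen by symbol, as genes whose name starts with Mrpl or Mrps followed by a digit, and 78 of the 16142 genes in the table met this rule. Of these, 49 carried an Mrpl symbol (large subunit) and 29 an Mrps symbol (small subunit).

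The mitochondrial ribosome is assembled in the mitochondrial matrix from rRNAs transcribed from mitochondrial DNA and from proteins that are encoded in the nucleus, made in the cytosol and imported. It translates the few mRNAs of the mitochondrial genome, which encode core subunits of the respiratory chain and of ATP synthase. T cells are known to expand their mitochondria and mitochondrial translation after activation through the T cell receptor.

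RNA-seq was performed on splenic CD4+ T cells, with 2 libraries from WT B6 mice and 2 from Cd4CreERT2LSL-R111Afl/fl mice. In R111A, the site at which MALT1 cleaves the RNase Regnase-1, encoded by Zc3h12a, is altered. This mutant was expressed with EGFP from a transgene in the Rosa26 locus, under a CAG promoter and behind a floxed Stop cassette, once a tamoxifen-inducible Cre driven by Cd4 had removed the cassette. CD4+ T cells were purified by depletion of other cells, FACS sorted and then stimulated for 12 h with antibodies to CD3 (5 µg/mL) and CD28 (1 µg/mL). Tamoxifen was injected intraperitoneally for 5 days at 75 mg/kg, in a label that covers the mice of both groups. The WT mice carried neither Cre nor the transgene, so effects of Cre, EGFP and R111A cannot be told apart. The authors' methods give both sexes and an age range for experiments in general, and a GFP gate for reporter mice. The labels give no age, sex or sort gate for these libraries. They also do not say whether the libraries of a group came from separate animals, so that p-values measure only the spread between these samples, which may be technical.

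Expression was given as FPKM, a read count divided by transcript length and library size, so levels can be compared between genes. Zc3h12a stood at 17.0 and 15.7 FPKM in WT replicates 1 and 2 and at 196 and 131 FPKM in R111A replicates 1 and 2. Both R111A libraries thus held far more Zc3h12a RNA than either WT library, as their labels imply, although transgene and endogenous RNA were not separated. The FPKM values summed to 801475 and 836143 in the WT libraries and to about 1053550 and 1012210 in the R111A libraries. Read counts were not used here. Steps among low values put the depth of WT replicate 1 at 1.0 times WT replicate 2 and at 1.0 and 1.2 times the R111A libraries.

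The 78 genes were expressed in all 4 libraries, and all 78 passed the filter for testing (a mean of at least 1 FPKM). Their mean levels ran from 5.89 FPKM for Mrps25 to 363 FPKM for Mrpl12, with a median of 64.7 FPKM. Together they summed to 7190 and 7728 FPKM in the WT libraries and to 5969 and 5742 FPKM in the R111A libraries. As a share of all FPKM this was 0.897% and 0.924% in WT and 0.567% and 0.567% in R111A, so that the groups did not overlap. Such a share also falls where other genes take up more of the sum. Cytosolic ribosomal protein genes held 34.2% and 35.7% of all FPKM in WT and 49.4% and 47.9% in R111A. The median of the 78 genes stood at 71.0 and 75.6 FPKM in WT, against 52.4 and 48.3 FPKM in R111A.

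The first question was which of these genes differed between R111A and WT cells. Most were lower in R111A. By limma on log2(FPKM + 1), with p-values adjusted over all 9831 genes tested, 48 of the 78 were lower at an adjusted p under 0.05 (61.5%), against 32.1% of all genes tested. Only 2 were higher (2.56%), against 21.2% of all genes. The other 28 were not called. Both R111A libraries lay below both WT libraries for 62 of the 78 (46.3% of all genes) and above them for 3 (32.0% of all genes). Past a 2-fold change, 7 of 78 were lower (8.97%), about as many as among all genes (8.34%), and 0 were higher, against 8.52% of all genes. Leaving out WT replicate 1 lowered the count of lower genes to 30 and leaving out WT replicate 2 lowered it to 23, while all genes called lower fell from 3152 to 1957 and 1937. In these fits the lone library of a group is assumed to vary like the other group.

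**Figure D1:**
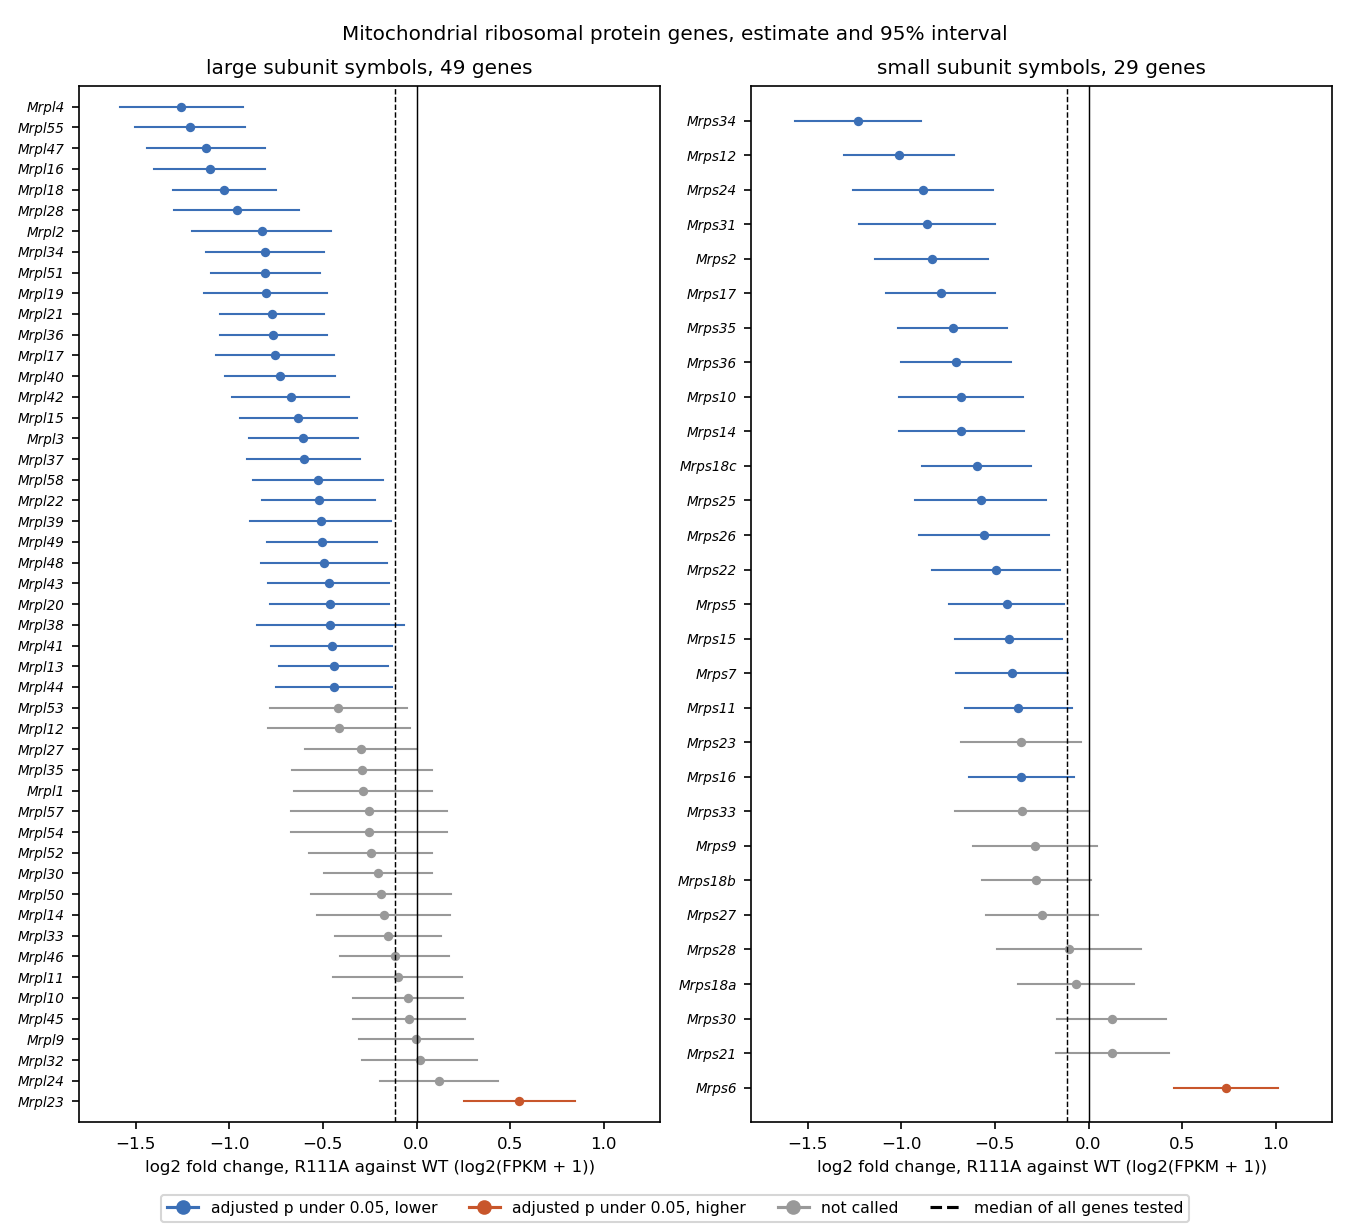
Log2 fold change of each of the 78 genes in R111A against WT on the log2(FPKM + 1) scale (horizontal axis), with its 95% interval from limma (lines), for the 49 Mrpl and 29 Mrps symbols. Colors mark genes past an adjusted p of 0.05, and the dashed line is the median of all 9831 genes tested, −0.12; 72 of the 78 points lie below 0 as deposited.

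The median log2 fold change of the 78 genes was −0.46, and that of all genes tested was −0.12. The scale of the libraries affects both values. Rescaling each library to a common sum (TPM) shifted the median of all genes by −0.30, to −0.42, and the median of the 78 genes to −0.79. Relative to the median of all genes, the 78 genes stood at −0.35 as deposited, at −0.38 after rescaling to TPM and at −0.34 with median-of-ratios factors. Below the median of all genes lay 66, 68 and 65 of the 78 on these 3 scales. After rescaling to TPM, 71 of the 78 were called lower and 1 higher, beside 5128 of 9891 genes lower in all, while among all genes called the higher ones made up 20.7% instead of 39.8%. The count of genes lower by 2-fold rose from 7 to 25 on that scale, with 1756 of 9891 genes in all, so it depends on the scale chosen. The sums behind TPM include cytosolic ribosomal protein genes, at 273777 and 298588 FPKM in WT and 520492 and 484871 FPKM in R111A. A rise in these genes lowers all other genes on the TPM scale by construction.

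The lowest values relative to WT were found for genes of both subunits. Mrpl4 (NCBI gene 66163), the counterpart of a bacterial protein that lines the exit tunnel, stood at 57.7 and 57.4 FPKM in the WT libraries and 26.0 and 21.3 FPKM in the R111A libraries. The R111A libraries held less than either WT library, with a log2 fold change of −1.26 (SE 0.14, adjusted p 0.000174). Mrps34 (NCBI gene 79044), a small subunit protein with no bacterial counterpart, stood at 95.4 and 85.0 FPKM in WT, against 41.9 and 34.1 FPKM in R111A. It fell by 1.23 on the log2 scale (SE 0.15, adjusted p 0.000234). Its locus overlaps Mapk8ip3 and Nme3, and counting with regard to strand is not stated, so reads of overlapping genes may not be separated. Mrpl55, another protein that bacteria lack, stood at 50.2 and 53.6 FPKM in the WT libraries and 21.7 and 22.1 FPKM in the R111A libraries, a log2 fold change of −1.21 (SE 0.13, adjusted p 0.00012).

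The remaining genes that were lower by 2-fold encode proteins with bacterial counterparts. Mrpl47 was at 68.3 and 81.4 FPKM in WT, against 33.6 and 33.7 FPKM in R111A, with a log2 fold change of −1.13 (SE 0.14, adjusted p 0.000262), and its locus overlaps Actl6a and Ndufb5. Mrpl16 was at 51.8 and 55.9 FPKM in the WT libraries and 24.1 and 24.8 FPKM in the R111A libraries, with a log2 fold change of −1.11. Both genes separated the groups by more than their replicates differed. Mrpl18, whose locus overlaps Tcp1, was at 155.6 and 155.5 FPKM in WT, against 74.7 and 77.1 FPKM in R111A, with a log2 fold change of −1.03. Mrps12, which belongs to the decoding centre of the small subunit, was at 100.3 and 99.8 FPKM in the WT libraries and 52.0 and 46.3 FPKM in the R111A libraries, with a log2 fold change of −1.01 (SE 0.13, adjusted p 0.000319). With median-of-ratios factors Mrpl18 and Mrps12 stood at −0.93 and −0.92, short of 2-fold, and both were still called lower.

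Mrps6 and Mrpl23 ran against the rest. Mrps6, the counterpart of bacterial S6, stood at 204 and 217 FPKM in WT, against 343 and 358 FPKM in R111A. It was higher in both R111A libraries by a log2 fold change of 0.74 (SE 0.12, adjusted p 0.00123), and by 0.40 after rescaling to TPM (adjusted p 0.0154). The Mrps6 locus on chromosome 16 is shared on the same strand with Slc5a3, a myo-inositol transporter gene, which stood at 11.5 and 12.1 FPKM in the WT libraries and 17.7 and 37.1 FPKM in the R111A libraries. The assignment of reads between them is therefore uncertain. Mrpl23, the counterpart of a bacterial protein at the mouth of the exit tunnel, stood at 138 and 161 FPKM in WT, against 219 and 218 FPKM in R111A, with a log2 fold change of 0.55 (SE 0.13, adjusted p 0.00756). This call was lost after rescaling to TPM (0.22, adjusted p 0.171) and without WT replicate 1 (0.44, adjusted p 0.165).

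**Figure D2:**
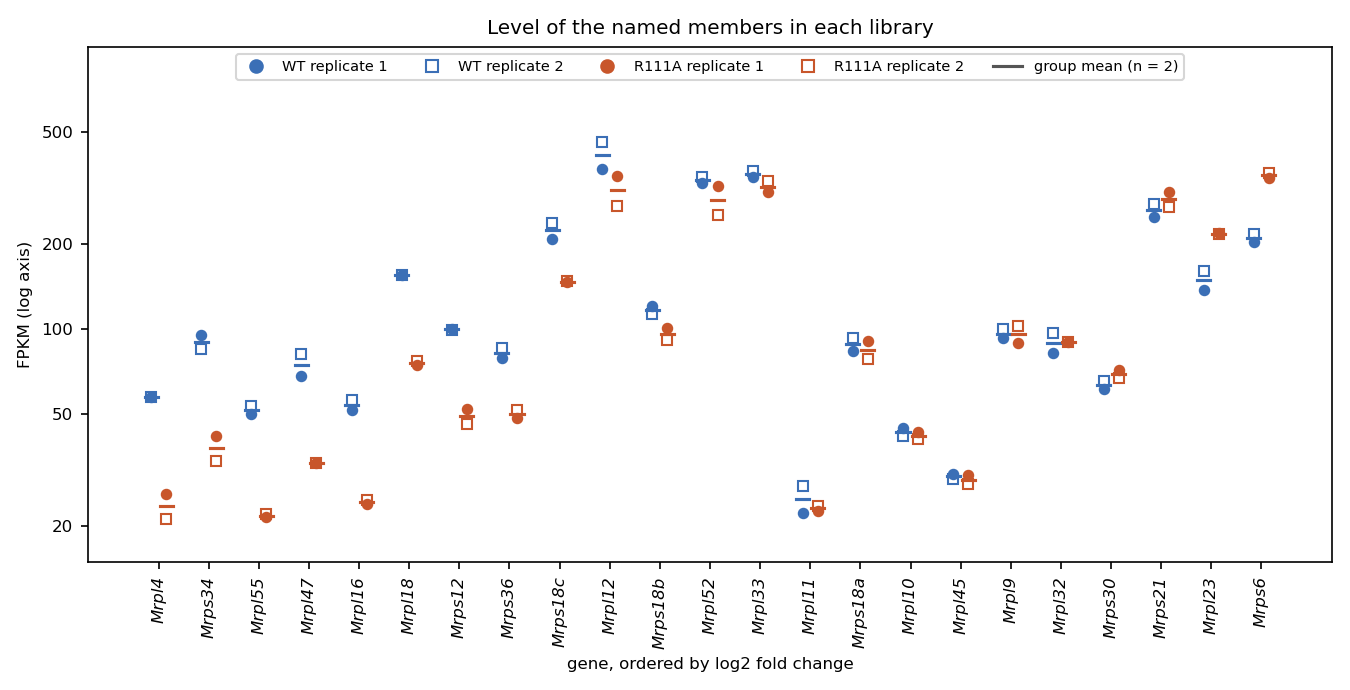
FPKM (log axis) of 23 named genes in each library, ordered by log2 fold change, with WT in blue, R111A in orange, filled circles for replicate 1, open squares for replicate 2 and bars for group means (n = 2). At the left Mrpl4 lies at 57.7 and 57.4 FPKM in WT against 26.0 and 21.3 FPKM in R111A, and at the right only Mrpl23 and Mrps6 have R111A values called higher.

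The most abundant members differed among themselves. Mrps6, the highest of the small subunit, was higher in R111A as given above, and Mrps18c, also among the 10 highest, was lower. Mrpl12, which forms the stalk of the large subunit and is also known to bind the mitochondrial RNA polymerase, stood at 369 and 461 FPKM in the WT libraries and 349 and 274 FPKM in the R111A libraries. Its log2 fold change of −0.42 (SE 0.17) did not pass the test (adjusted p 0.0622), and it passed after rescaling to TPM, with the replicate block, without WT replicate 1 and without R111A replicate 1 (adjusted p 0.000701, 0.0218, 0.0464 and 0.0227). The other stalk genes, Mrpl10 and Mrpl11, were not called either, at −0.04 and −0.10, and both were called lower after rescaling to TPM (adjusted p 0.0367 and 0.0308). Mrpl33 stood at 345 and 365 FPKM in WT, against 306 and 334 FPKM in R111A, and Mrpl52 at 331 and 346 FPKM in the WT libraries and 321 and 254 FPKM in the R111A libraries. For both, the R111A libraries were below the WT libraries by less than the test could call (adjusted p 0.325 and 0.183), and both were called after rescaling to TPM (adjusted p 0.0056 and 0.00255), Mrpl52 also without R111A replicate 1 (adjusted p 0.0121). Mrps21, the second most abundant small subunit gene, had a log2 fold change of 0.13 (adjusted p 0.446) and overlapping groups, and of −0.21 after rescaling to TPM.

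Across the 78 genes, Spearman's correlation of log2 fold change with mean FPKM was 0.26, and with transcript length it was −0.09. These values describe genes measured in the same 4 libraries, which are not independent replicates. The transcripts are short, with a median length of 1052 bases against 2074 bases for the 9600 genes tested that had a length.

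On the deposited scale, values nearest to 0 were found for Mrpl9, Mrpl32 and Mrpl45. Mrpl9 was at 92.9 and 99.9 FPKM in WT, against 89.6 and 103 FPKM in R111A. Mrpl45, which helps to anchor the ribosome at the inner membrane, was at 30.7 and 29.4 FPKM in the WT libraries and 30.4 and 28.2 FPKM in the R111A libraries. In both genes the groups overlapped, with 95% intervals of the log2 fold change from −0.31 to 0.30 and from −0.34 to 0.26. On the TPM scale Mrpl45 was called lower (−0.36, adjusted p 0.0436). Mrpl9 and Mrpl32 were not (−0.34 and −0.32, adjusted p 0.0554 and 0.0624). Other members, such as Mrps30 and Mrps21 (both −0.21), lay nearer to 0 on that scale.

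The symbols do not always give the place of the protein. Mrps18a, Mrps18b and Mrps18c are paralogs of bacterial S18, of which Mrps18a resides in the large subunit, as does Mrps30. Mrps18c stood at 210 and 239 FPKM in WT, against 147 and 148 FPKM in R111A and was lower (log2 fold change −0.60, SE 0.13, adjusted p 0.00457), a call lost without WT replicate 2 (adjusted p 0.11). Mrps18b and Mrps18a had log2 fold changes of −0.28 and −0.07 and were not called (adjusted p 0.094 and 0.701), whereas both were called lower after rescaling to TPM (−0.61 and −0.40, adjusted p 0.00173 and 0.0230) and Mrps18b also without R111A replicate 1 (adjusted p 0.0198). The difference between the paralogs was not tested. Mrps30 stood at 61.4 and 65.6 FPKM in the WT libraries and 71.7 and 66.9 FPKM in the R111A libraries and was not called (log2 fold change 0.12, adjusted p 0.436), with a value of −0.21 after rescaling to TPM. Mrps36, now known as a component of the 2-oxoglutarate dehydrogenase complex, stood at 79.2 and 86.0 FPKM in WT, against 48.5 and 51.9 FPKM in R111A, and was lower by a log2 fold change of −0.71 (SE 0.13, adjusted p 0.00201).

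The subunits were compared next, beside the 32.1% lower and 21.2% higher among all genes tested, whose median log2 fold change was −0.12. Of the 49 Mrpl genes, 29 were lower (59.2%) and 1 higher (median −0.46). Of the 29 Mrps genes, 19 were lower (65.5%) and 1 higher (median −0.44). The medians differed by −0.03, less than the spread of that difference between replicates (SD 0.0564), and by 0.01 when Mrps30 and Mrps18a were counted in the large subunit and Mrps36 in neither. No difference between the subunits was thus resolved in the medians.

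The ratio of large to small subunit FPKM was 1.84 and 1.84 in WT and 1.70 and 1.69 in R111A, and a comparison of 2 against 2 allows no two-sided exact permutation p under 0.33. Without Mrps6, which was left out after its values were seen, the ratio was 1.998 and 1.999 in WT and 2.01 and 2.04 in R111A. Leaving out an abundant gene that was higher raises this ratio in R111A by construction, and no other gene was left out for comparison.

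The proteins were also divided by the class that structural nomenclature gives them. Of 45 in classes shared with bacteria, 28 were lower (62.2%) and 2 higher (median log2 fold change −0.44), against 32.1% and 21.2% of all genes tested. Of 32 classed as specific to mitochondria, with the S18 paralogs Mrps18a and Mrps18b among them, 19 were lower and 0 higher, with a median of −0.47. Neither median stood apart from that of the 78 genes.

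Members with more than 1 gene at their locus were counted separately, since reads may be shared there. An overlap was counted where the other listed protein-coding gene averaged at least 1 FPKM. Of 21 members with such an overlap, 15 were lower (71.4%) and 1 higher, against 32.1% and 21.2% of all genes tested. Of the 57 without such an overlap, 33 were lower (57.9%) and 1 higher (median log2 fold change −0.46).

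The most similar other group, the cytosolic ribosomal proteins, was read for comparison. Of 73 genes by symbol, 72 were tested, and Rps27 was listed at 0 in all libraries. Of these, 60 were higher and 0 lower (median log2 fold change 0.73), against 21.2% and 32.1% of all genes tested. After rescaling to TPM 49 were higher and 4 lower, with a median of 0.40, against 1337 and 5128 of 9891 genes. Only 3 of the 72 had both R111A libraries below both WT libraries. Rps19 stood at 3896 and 4535 FPKM in the WT libraries and 13979 and 14303 FPKM in the R111A libraries, the largest change of the list (log2 fold change 1.75). Cytosolic ribosomal protein genes have many processed pseudogenes, so these levels are uncertain.

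The cytosolic genes made up 34.2% and 35.7% of all FPKM in WT and 49.4% and 47.9% in R111A. The FPKM of cytosolic over mitochondrial ribosomal protein genes was 38.1 and 38.6 in WT and 87.2 and 84.4 in R111A. This ratio is taken within each library and does not depend on the scaling between them. The groups did not overlap in it.

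**Figure D3:**
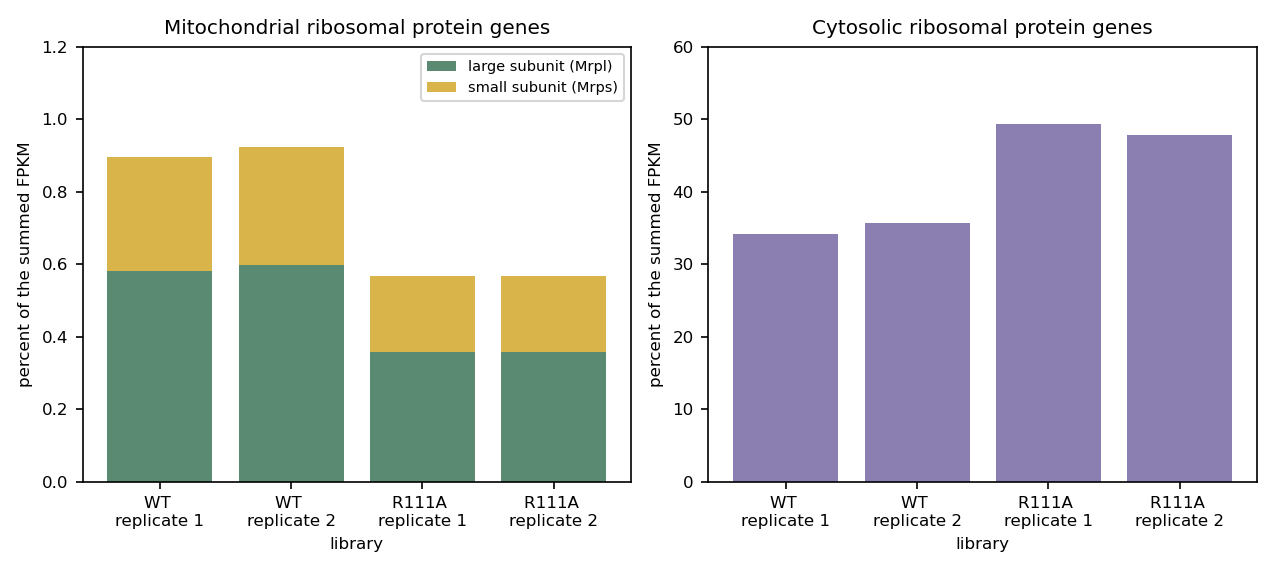
Percent of each library's summed FPKM held by mitochondrial ribosomal protein genes (left, split into Mrpl and Mrps) and by cytosolic ribosomal protein genes (right), with 1 bar for each library and axes that start at 0. The mitochondrial share was 0.897% and 0.924% in WT and 0.567% in both R111A libraries, whereas the cytosolic share rose from 34.2% and 35.7% to 49.4% and 47.9%. A larger cytosolic share by itself lowers the share left to other genes.

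Other genes of mitochondrial translation were taken from lists, to be read beside the 32.1% lower and 21.2% higher among all genes tested. No difference of a list from all genes or from another list was tested. Of 5 ribosomal proteins with other names, 2 were lower (40.0%) and 0 higher. Gadd45gip1, a large subunit protein at the exit tunnel, stood at 53.3 and 52.3 FPKM in WT, against 33.6 and 24.1 FPKM in R111A (log2 fold change −0.87, adjusted p 0.00289). Aurkaip1, of the small subunit, stood at 99.5 and 112 FPKM in the WT libraries and 70.1 and 68.0 FPKM in R111A cells (log2 fold change −0.60, adjusted p 0.0045), and was not called without WT replicate 2 (adjusted p 0.118). Dap3, Ptcd3 and Chchd1, also of the small subunit, were not called, at −0.35, −0.41 and −0.23, and were all called lower after rescaling to TPM (−0.67, −0.74 and −0.56).

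Of 26 assembly factors, which modify rRNA or guide the joining of proteins, 13 were lower (50%) and 3 higher (11.5%), with a median of −0.42. The largest falls were those of the pseudouridine synthase gene Rpusd3 (−1.12), the helicase gene Ddx28 (−0.83) and the GTPase gene Gtpbp10 (−0.74). Rpusd3 stood at 5.45 and 8.36 FPKM in WT, against 2.84 and 2.34 FPKM in R111A. The rRNA methyltransferase genes Mrm3 and Mrm1 and the transcription factor gene Mterf3 were higher, at 0.47, 0.47 and 0.44, and these calls were lost after rescaling to TPM (adjusted p 0.414, 0.367 and 0.511) and without either WT library.

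Of 16 translation factors and related genes, 9 were lower (56.2%) and 1 higher (6.25%), with a median of −0.41. Tsfm, the exchange factor of the elongation factor Tu, stood at 46.3 and 52.6 FPKM in the WT libraries and 20.9 and 18.9 FPKM in the R111A libraries, with a log2 fold change of −1.27 (SE 0.14, adjusted p 0.000136). Gfm1, the elongation factor G, stood at 49.5 and 42.1 FPKM in WT, against 22.9 and 21.9 FPKM in R111A (adjusted p 0.00052), and Guf1 was lower at −1.06. Tufm, the elongation factor Tu itself, which was added after its values were seen, was lower at −0.84 (adjusted p 0.00127). The counts for this list, and those over 63 genes below, include Tufm. The initiation factor gene Mtif3 was higher (0.43, adjusted p 0.0348). It was not called after rescaling to TPM (0.14, adjusted p 0.467), without a filter (adjusted p 0.0728) or without either WT library. Over these lists and that of mitochondrial DNA expression, 27 of 63 genes were lower, 15 without WT replicate 1 and 12 without WT replicate 2, and 6 were higher, 2 without either.

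Mitochondrial DNA expression, that is the transcription, replication and RNA processing of the mitochondrial genome, had 3 of 16 genes lower (18.8%), 2 higher (12.5%) and a median of 0.02. After rescaling to TPM, 6 were lower, 1 higher and 14 negative, with a median of −0.29, against 5128 of 9891 genes lower and a median of −0.42 for all genes. Elac2 and Prorp, which cleave tRNA ends, were lower at −0.86 and −0.74, although Prorp was not called without WT replicate 1 (−0.58). Tfam, which packages mitochondrial DNA, was lower at −0.44 (adjusted p 0.0316). This call was lost without either WT library, with median-of-ratios factors (adjusted p 0.0686) and without a filter (adjusted p 0.0615). The near copies Mterf1a and Mterf1b were higher, at 0.78 and 0.74, and are uncertain because reads may be shared between them. The Mterf1b call was lost after rescaling to TPM (adjusted p 0.0558) and without a filter (adjusted p 0.0629). The mRNAs encoded by mitochondrial DNA were not analysed here.

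**Figure D4:**
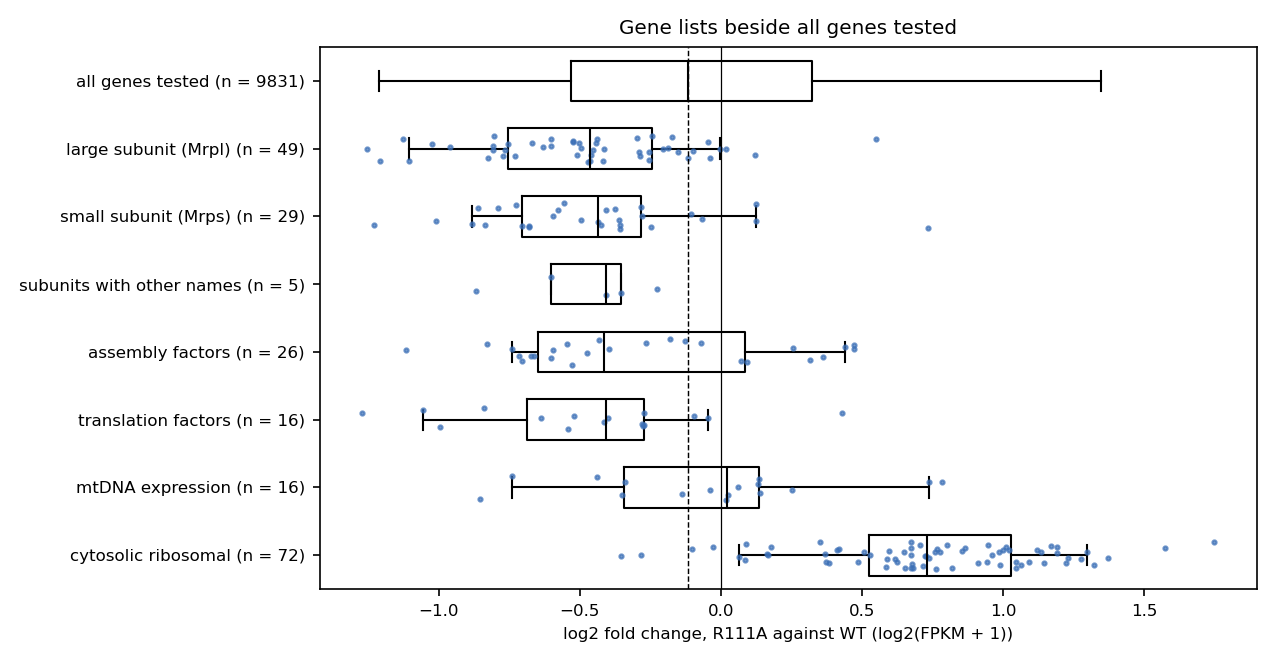
Log2 fold change in R111A against WT (horizontal axis) for all genes tested and for each list, where points are genes, boxes span the quartiles with the median as a line, and whiskers reach the 5th and 95th percentiles; the dashed line is the median of all genes. The Mrpl and Mrps medians lie at −0.46 and −0.44 and the cytosolic ribosomal median at 0.73, which was 0.40 after rescaling to TPM.

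Some of the genes start close to a neighbour on the opposite strand, and the share of all genes that do so is not given here. Within 500 bp of the annotated start, 25 of the 78 had such a divergent neighbour, and in 22 of these pairs the neighbour was not itself a mitochondrial ribosomal gene and was tested. Of the 22 neighbours, 7 were lower, 6 higher and 9 not called (median log2 fold change −0.21), against −0.44 for the members beside them. These counts are near the shares of all genes tested (32.1% lower and 21.2% higher), and the difference from the members was not tested. Of the 14 members called lower, 5 had a neighbour that was lower and 4 had a neighbour that was higher. The pairs named next were chosen after their values were seen.

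Mrpl49 starts 59 bp from Fau, which encodes a protein of the cytosolic small subunit fused to a ubiquitin-like protein. Mrpl49 stood at 34.0 and 33.1 FPKM in the WT libraries and 23.6 and 23.2 FPKM in R111A cells (log2 fold change −0.50, adjusted p 0.0104). Fau stood at 3933 and 4037 FPKM in WT, against 9162 and 7936 FPKM in R111A (1.10, adjusted p 0.000212), and remained higher after rescaling to TPM (0.76). The partners of this pair thus moved in opposite directions. Mrpl2 and the kinesin light chain gene Klc4, which start 207 bp apart, did the same, with log2 fold changes of −0.83 and 1.00. In contrast, Mrps34 and Eme2, a gene for a subunit of a DNA repair nuclease, start 29 bp apart and were both lower, at −1.23 and −1.56. Mrpl51 and the condensin gene Ncapd2, 100 bp apart, were also both lower, at −0.81 and −1.15.

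**Figure D5:**
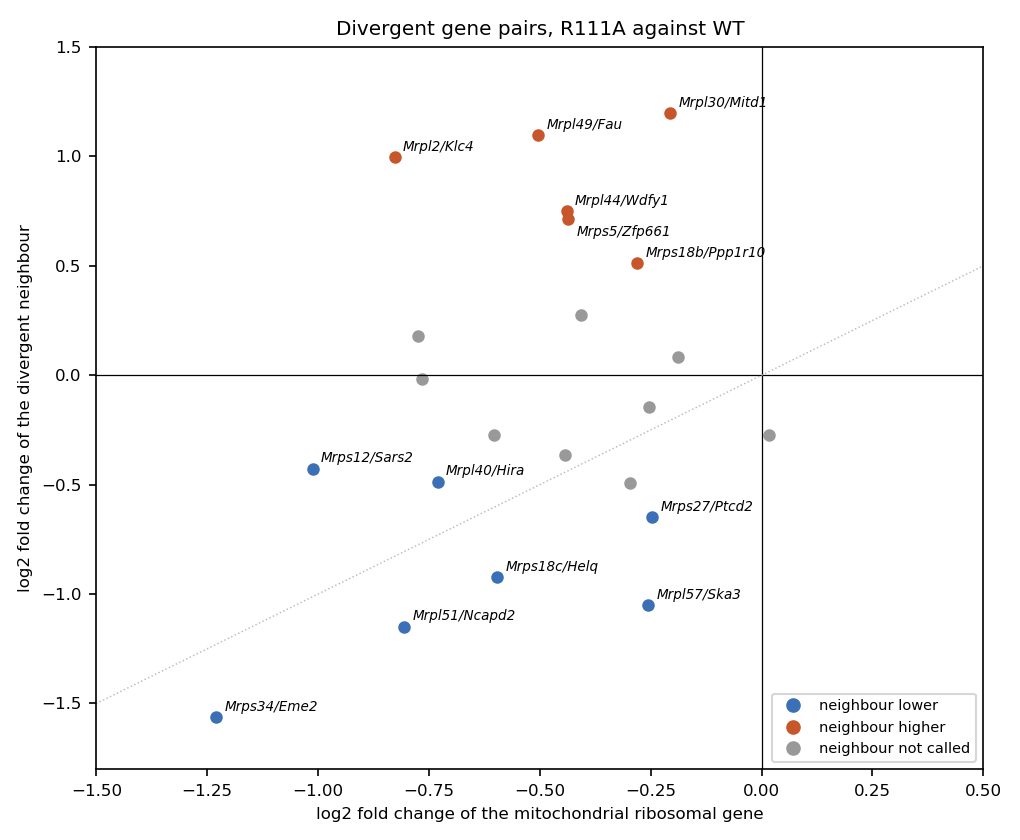
Log2 fold change of each mitochondrial ribosomal gene (horizontal axis) and of its divergent neighbour (vertical axis) in R111A against WT, with 1 point for each of 22 pairs, colored by the call of the neighbour; the dotted line marks equal values. Neighbours were spread from −1.56 for Eme2 to above 1 for Mitd1 although 21 of the 22 members had a value below 0 as deposited.

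The promoters of the members were searched for short motifs on both strands. RefSeq promoters (GRCm38.p6, 250 bases before to 50 after the start) were matched for 69 of the 78 genes and for 8041 of the genes tested, and a gene counts once if any of its starts has a match. The letters CCGGAAG, a core bound by ETS factors such as GABP, occurred in 26 of the 69 (37.7%), against 23.6% of the genes tested and 9.93% of all 27025 genes with a promoter. AAGATGG, a core bound by YY1, occurred in 13 (18.8%), against 9.17% of genes tested and 7.28% of all. GCATGCGC, as bound by NRF1, occurred in 8 (11.6%), against 6.78% and 3.05%. CACGTG, the E-box bound by MYC and other factors, occurred in 5 (7.25%), against 12.5% and 8.09%.

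Longer forms that contain or overlap these cores had been searched first, and the shorter ones afterwards. CCGGAAGT was found in 12 of the 69 (17.4%, against 10.8% of genes tested), AAGATGGCG in 8 (11.6%, against 4.23%) and GCGCATGCG in 7 (10.1%, against 4.74%). These shares were not tested. The motifs did not divide the members by their change in a way that the counts could resolve, since 15 of the 41 members called lower and 11 of the 28 others held CCGGAAG, and 3 and 5 held GCATGCGC. All 5 members with CACGTG (Mrpl2, Mrpl20, Mrpl36, Mrpl37 and Mrps18c) were among those called lower, a number too small to read further. A match describes letters in a window and not a bound site.

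Examples of the 150 bases before a transcript start in the promoter set, which holds alternative starts for some genes, are shown from members that were lower (Mrpl2, Mrpl34 and Mrps22) and from members that were not called (Mrpl52 and Mrpl9), with matches to the shorter motifs in capitals. The log2 fold changes were −0.83, −0.81, −0.50, −0.25 and 0.00. Mrpl2 is shown at chr17:46646071-46646220 (plus strand) with CACGTG, Mrpl34 at chr8:71464776-71464925 (plus) and Mrps22 at chr9:98601680-98601829 (minus) with CCGGAAG. Mrpl52 is shown at chr14:54426759-54426908 (plus) with AAGATGG and CCGGAAG, the latter read on the other strand, and Mrpl9 at chr3:94443186-94443335 (plus) with GCATGCGC overlapping itself on both strands. The starts of Mrpl2 and Mrpl9 used here lie inside the RefSeq gene loci, so the last 49 bases of the Mrpl2 stretch and all of the Mrpl9 stretch are within the locus.
Mrpl2: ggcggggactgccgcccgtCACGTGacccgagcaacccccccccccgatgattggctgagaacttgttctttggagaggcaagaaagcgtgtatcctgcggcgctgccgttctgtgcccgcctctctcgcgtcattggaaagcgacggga
Mrpl34: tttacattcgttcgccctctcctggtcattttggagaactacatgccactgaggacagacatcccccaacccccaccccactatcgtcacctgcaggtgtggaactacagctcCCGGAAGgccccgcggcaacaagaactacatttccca
Mrps22: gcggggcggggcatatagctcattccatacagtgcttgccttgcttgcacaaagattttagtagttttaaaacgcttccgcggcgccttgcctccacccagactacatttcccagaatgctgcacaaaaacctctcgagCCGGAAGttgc
Mrpl52: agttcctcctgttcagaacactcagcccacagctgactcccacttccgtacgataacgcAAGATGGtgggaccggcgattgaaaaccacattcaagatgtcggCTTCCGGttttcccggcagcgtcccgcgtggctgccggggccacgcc
Mrpl9: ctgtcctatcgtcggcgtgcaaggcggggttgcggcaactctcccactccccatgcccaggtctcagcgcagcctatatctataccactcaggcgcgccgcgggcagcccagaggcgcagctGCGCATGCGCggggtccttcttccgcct

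Markers of CD4+ T cells were high in all libraries, with a summed level over 8 genes of 2019 and 2009 FPKM in WT and 1740 and 1600 FPKM in R111A, Cd3g being the most abundant. Cd4 itself was lower in R111A (158 and 131 FPKM against 70.7 and 51.4 FPKM), and 4 of the 8 were lower, a count of 6 after rescaling to TPM and of 2 with median-of-ratios factors. Among all genes tested, 32.1% were lower as deposited, 5128 of 9891 after rescaling to TPM and 2647 of 9825 with median-of-ratios factors. Of the 4 markers, Cd5 (adjusted p 0.0491) was lost in most alternatives. Cd3d was higher, though not after rescaling to TPM (adjusted p 0.811) or without either WT library. In bulk RNA, fewer cells of a type and less RNA per cell cannot be told apart. The CD8 markers Cd8a and Cd8b1 summed to 7.31 and 6.76 FPKM in WT and to 3.88 and 4.46 FPKM in R111A. Of the genes listed as regulatory T cell markers, Foxp3 and Ctla4 were lower (log2 fold change −1.72 and −1.90), and Ikzf2 and Il2ra, the most abundant, were not called. In cells stimulated for 12 h, it was not tested which CD4+ T cells held these RNAs. After rescaling to TPM all 4 were lower (adjusted p 0.0205 for Ikzf2 and 0.0110 for Il2ra).

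Markers of other cells were low in all 4 libraries, and several were higher in R111A. The 5 erythroid markers summed to 0.66 and 0.70 FPKM in WT and to 12.85 and 12.97 FPKM in R111A, with Hba-a1 the most abundant and Hba-a2 and Hbb-bs listed at 0. The 8 myeloid markers summed to 2.22 and 1.45 FPKM in WT and to 15.7 and 11.1 FPKM in R111A, with Cd68 the most abundant and S100a9 listed at 0. The 5 NK markers summed to 1.14 and 1.00 FPKM in WT and to 7.83 and 5.63 FPKM in R111A. This sum mostly follows Eomes, at 0.88 and 0.80 FPKM in WT and 6.68 and 4.32 FPKM in R111A. Every other NK marker stayed under 1 FPKM in all libraries, and which cells held the Eomes RNA was not tested. Of the B cell markers, Cd79a stood at 0.32 and 0.24 FPKM in WT, against 2.99 and 2.37 FPKM in R111A, and Cd79b at 1.15 and 0.24 FPKM against 1.51 and 1.71 FPKM. Ms4a1 (0.17 to 0.23 FPKM) and Pax5 (0.01 to 0.06 FPKM) did not separate the groups in this way. Most of these genes are too low to be tested, and calls are not counted because a gene low in WT passes the filter only when it is high in R111A. The samples had been depleted of other cells and FACS sorted, as given above, which are steps meant to remove such cells. The part of other cells in the lower levels of mitochondrial ribosomal protein genes was not tested.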

How the data were processed

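The authors selected polyA RNA, aligned reads to mm10 with Bowtie2 (2.4.4), estimated expression with RSEM (1.2.28) and deposited FPKM values. 0 columns were left unused. The authors' calls with DESeq2 were not repeated, since the table holds no counts. Here log2(FPKM + 1) was tested with limma (3.58.1, R 4.3.3; lmFit, eBayes with trend, two-sided, Benjamini-Hochberg) for genes averaging 1 FPKM or more, after a test on simulated data. Fold changes on this scale understate changes of low genes. Members and lists were chosen with earlier results of these data known. Named genes were members past 2-fold, the largest calls in each direction, the 3 most abundant of each subunit, the 3 nearest to 0, several by role, and up to 3 in each direction from other lists. Mrpl55 was moved to the mitochondria-specific class, and the motif forms and the 500 bp window were set, after values were seen. RefSeq (GRCm38.p6) matched 16107 gene IDs and gave loci; strands, overlaps and lengths came from GENCODE M21. Alternatives were pseudocounts of 0.1 and 5 FPKM, no filter, a filter at 5 FPKM, TPM, median-of-ratios factors, a replicate block and leaving out each library. Python 3.11.15 (numpy 2.4.6, pandas 2.3.3, scipy 1.17.1, matplotlib 3.10.9) was used. The summed level of B cell markers is not reported here.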

Additional observations from a re-analysis of the deposited data

How the results depend on the processing

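Counts and medians of the members were within 1.5 times, or within 1 SD between replicates, with a pseudocount of 0.1 FPKM, without a filter and with a filter at 5 FPKM. With a pseudocount of 5 FPKM, which shrinks folds by construction, 4 members were lower by 2-fold. Rescaling to TPM gave 5128 genes lower and 1337 higher in all, 1 member higher and 25 lower by 2-fold, medians of −0.80 (large subunit), −0.77 (small subunit) and 0.40 (cytosolic ribosomal proteins), and 41 lower and 1 higher among other mitochondrial translation genes. With median-of-ratios factors these medians were −0.37, −0.35 and 0.82. Leaving out each library in turn gave 1937 to 3790 genes lower in all, 23 to 55 members lower and 1 to 3 higher, medians of −0.52 to −0.44 (large) and −0.51 to −0.43 (small), and 12 to 35 lower and 2 to 9 higher among other mitochondrial translation genes; the lowest counts came without a WT library. The causes were not tested. Of the 48 members lower, 48 were still lower on the TPM scale, 37 with median-of-ratios factors, 29 without WT replicate 1 and 23 without WT replicate 2. The ratio of large to small subunit FPKM was lower in R111A (difference −0.14) and higher by 0.0258 without Mrps6, an alternative chosen once values were known and bound to raise it.

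The labels do not say whether the replicate numbers pair the samples. With the replicate block, 52 members were lower and 2 higher, 3358 and 2236 genes in all. Deviations of same-numbered replicates correlated at 0.111 across genes. The depth behind each value is not known, so counting error cannot be given.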

Other observations

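Regulators of nuclear genes for mitochondrial proteins were also read. Of 10 genes, 9 were tested, with 2 lower (22.2%) and 1 higher (11.1%) in R111A, against 32.1% and 21.2% of all genes tested, and with 7 lower after rescaling to TPM, against 5128 of 9891 genes on that scale. Myc, a transcription factor known to raise ribosome and mitochondrial gene expression in activated T cells, stood at 228 and 204 FPKM in the WT libraries and 128 and 87.6 FPKM in the R111A libraries, a log2 fold change of −1.02 by limma (SE 0.18, adjusted p 0.00186). Esrra, an orphan nuclear receptor gene, stood at 14.9 and 18.2 FPKM in WT, against 11.2 and 9.31 FPKM in R111A (−0.64, adjusted p 0.00981), a call lost without WT replicate 2 (adjusted p 0.177).

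Subunits of GABP were read singly, and differences between them were not tested. Gabpb1 stood at 39.5 and 40.5 FPKM in the WT libraries and 63.8 and 64.8 FPKM in R111A cells (log2 fold change 0.67, adjusted p 0.00219), and was higher on the TPM scale as well (0.35, adjusted p 0.0451). Gabpa and Gabpb2 were not called, at −0.27 and −0.22. Both were called lower after rescaling to TPM (−0.59 and −0.54, adjusted p 0.0103 and 0.0301). Nrf1 and Yy1 were not called either, at 0.15 and −0.12. On the TPM scale Yy1 was called lower (−0.44, adjusted p 0.0213) and Nrf1 was not (−0.17, adjusted p 0.335). Ppargc1a was near 0 in all libraries, at 0.01 and 0.02 FPKM in WT and listed at 0 in R111A.

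Most members were higher in WT replicate 2 than in WT replicate 1 (57 of 78), and 38 of 78 were higher in R111A replicate 1 than in R111A replicate 2. The median absolute log2 difference between replicates was 0.10 in WT and 0.17 in R111A for the members, and 0.09 and 0.21 for all genes tested.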
